A study of Mus musculus with 6 samples.

Results

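The genes described here encode the enzymes and carriers that turn glucose into pyruvate and lactate, pass pyruvate into the mitochondrion and run the pentose phosphate pathway. They are 37 genes out of the 55335 in the deposited table, chosen by function, with earlier results of these data known, and matched by symbol to an Ensembl gene ID. All 37 were found, and 36 of them reached the mean of 1 FPKM (fragments scaled to transcript length and library size) that was required for testing. The exception was the lactate carrier gene Slc16a3. Polyadenylated RNA was sequenced from lysates of sciatic nerve of mice at postnatal day 14. Control libraries (n = 3, labelled flox) came from RhoAfl/fl mice, in which both copies of the gene of the small GTPase RhoA carry loxP sites. Knockout libraries (n = 3, labelled cko, called icKO here) came from RhoAfl/fl ChATCreERT2+ mice, which also carry a tamoxifen-inducible Cre recombinase driven from the choline acetyltransferase gene, and hence in cholinergic neurons such as motoneurons. The floxed allele is thus common to both groups. The labels give neither the time of induction, nor whether control mice received the inducer, nor sex, litter or pooling, and do not state whether each library is a different animal, so the p-values reflect only how much these libraries differ within a group.

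Glycolysis splits glucose into pyruvate in the cytosol, and lactate dehydrogenase interconverts pyruvate and lactate. Pyruvate enters mitochondria through a carrier made of Mpc1 and Mpc2, where the pyruvate dehydrogenase complex makes acetyl-CoA and is switched off by the pyruvate dehydrogenase kinases. The pentose phosphate pathway branches off after hexokinase and yields NADPH, a reductant for fatty acid and cholesterol synthesis, and ribose for nucleotides. In peripheral nerve, Schwann cells use glycolytic pyruvate for energy and for the lipids of growing myelin, and can pass lactate to the axons that they wrap.

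Transcripts of many glycolytic and pentose phosphate enzymes were lower in icKO nerves, while a PFKFB enzyme, the neuronal enolase and a pair of pyruvate dehydrogenase kinases were higher. Of the 36 tested members 17 fell and 4 rose in icKO relative to control nerves, and 15 did not pass (limma on log2(FPKM + 1), Benjamini-Hochberg adjusted p under 0.05 over all 12860 tested genes). Across all tested genes 42.9% passed, 22.1% as falls and 20.8% as rises, so the members' share of falls, 47.2%, stood above that background and their share of rises, 11.1%, below it. Because the members were chosen with earlier results of these data known, the comparisons with all tested genes are a description and not a test. The median log2 difference of the members was -0.32, against -0.01 for all tested genes, and 77.8% of the members had a negative difference against 51.0% of all tested genes. Libraries of the groups did not overlap for 24 of the 36 members, against 57.2% of all tested genes. Summed over the 37 members, FPKM was 1349, 1222 and 1232 in the control libraries and 847, 877 and 941 in the icKO libraries, without overlap. Ldhb and Aldoa, at control means of 195 and 183 FPKM, weigh most in this sum. The highest sum of each group was in its library richest in skeletal muscle transcripts, as was the highest Aldoa value. By step, 2 of 8 members from hexokinase to the PFKFB enzymes fell, 6 of 9 from aldolase to pyruvate kinase, 3 of 9 around pyruvate entry and 4 of 7 in the pentose phosphate pathway, together with both lactate dehydrogenase genes.

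**Figure D1:**
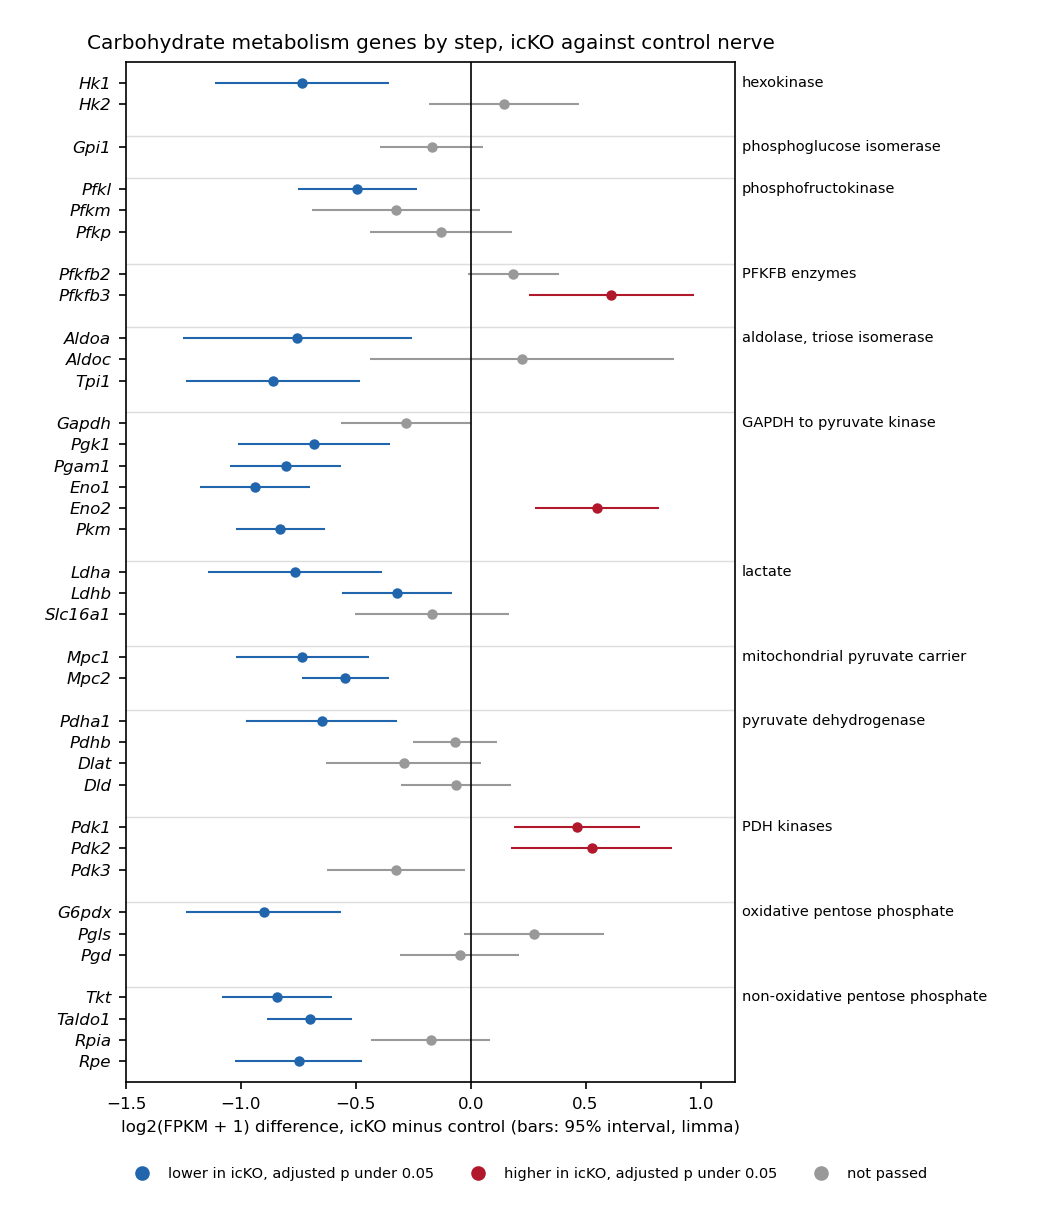
Difference in log2(FPKM + 1), icKO minus control, for each of the 36 tested genes (rows, grouped by metabolic step); points are the limma estimates from 3 libraries a group, bars their 95% intervals, and colours the calls at an adjusted p of 0.05. The 17 genes that fell lie left of 0, from -0.32 for Ldhb to -0.94 for Eno1, and the 4 that rose (Pfkfb3, Eno2, Pdk1 and Pdk2) lie between 0.46 and 0.61.

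Of the 17 falls, 15 passed in the same direction in each of the 19 alternative fits; the others, Aldoa and Ldhb, and all 4 rises were lost in at least 1 fit. Depth was estimated from the smallest steps of FPKM at 17300000 to 20600000 fragments a library. The floxed gene itself, Rhoa, was at a mean of 37.9 FPKM in the controls against 34.4 FPKM in icKO nerves and did not pass (limma, adjusted p = 0.195). The cell bodies of motoneurons, which the driver is meant to target, lie outside the nerve. Recombination was not measured in these data, and the reason for the Rhoa level was not tested. Control replicate 2 alone expressed Xist, at 46.1 FPKM (0.028 FPKM or less elsewhere), and had the Y-linked Ddx3y listed at 0. Of the members on the X chromosome, control replicate 2 lay between the other controls for G6pdx, Pdha1 and Pdk3 and below them for Pgk1.

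Marker genes of the cell types in a nerve moved with the genotype to different degrees. Schwann cell markers, which define the tissue, summed to 29798 to 31948 FPKM in the controls against 31572 to 36251 FPKM in icKO libraries, with 3 of 13 lower and 3 higher. Adipocyte markers summed to 708 to 810 FPKM and 380 to 432 FPKM, with 11 of 14 lower and 2 higher. These sums understate the falls of several markers. Adipoq was at 19.5% of its control mean, Cfd at 18.6% and Plin1 at 12.8%, while Fabp4 fell less, to 64.4%. Much of the icKO sum came from the 2 markers that rose, Plin4 (means of 10.7 and 85.1 FPKM) and Pnpla2 (48.4 and 74.6 FPKM). Slc36a2, which did not pass, added a mean of 98.1 FPKM to it. Fibroblast markers summed to 992 to 1778 FPKM and 805 to 815 FPKM (5 of 10 lower, 1 higher), and endothelial markers to 132 to 135 FPKM and 102 to 117 FPKM (4 of 10 lower, 1 higher). None of 9 tested macrophage and 6 tested red blood cell markers passed in limma, and 0 of each had an unadjusted p under 0.05. Macrophage markers summed to 111 to 244 FPKM in the controls and 129 to 136 FPKM in icKO libraries. Red blood cell markers summed to 2559 to 8341 and 3424 to 6000 FPKM. Control replicate 1 held the lowest macrophage sum (111 FPKM). Without it Cd68, Adgre1, Csf1r, Mrc1, C1qa, C1qb and C1qc were lower in icKO nerves, while Lyz2 and Cd163 passed in no alternative. Skeletal muscle markers summed to 1482, 295 and 401 FPKM in control replicates 1 to 3 and to 30.4, 45.1 and 1814 FPKM in icKO replicates 1 to 3, with 1 of 21 lower. No marker that was matched was at 0 in all libraries. With the muscle level as a covariate 17 members fell and 3 rose, but in that fit 10 of 21 tested muscle markers were lower and 7 higher. Without the 2 muscle-rich libraries (control replicate 1 and icKO replicate 3) 18 members fell and 3 rose. Leaving those libraries out did not even out muscle content: the remaining controls were at 295 and 401 FPKM of muscle markers and the remaining icKO libraries at 30.4 and 45.1 FPKM, and 12 of the 14 muscle markers tested in that fit were lower. The part of the other cell types in the results was not tested, and in bulk tissue fewer cells of a type and less RNA per cell cannot be told apart.

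Promoters of 6 members are printed to show the letters upstream of genes that fell (Ldha, Pgk1 and Pgam1) and that rose (Pfkfb3, Pdk2 and Eno2). Each is the 250 bases before the most upstream RefSeq start of the gene, read 5′ to 3′ on the gene's strand, in GRCm38.p6, an earlier build than the GRCm39 named for the deposited values. Capitals mark ACGTG on either strand (written CACGT where it lies on the other strand), the core shared by hypoxia response elements, which hypoxia-inducible factors bind, and by the E-box CACGTG, in which matches on both strands overlap.
Ldha (chr7:46845554-46845803, + strand): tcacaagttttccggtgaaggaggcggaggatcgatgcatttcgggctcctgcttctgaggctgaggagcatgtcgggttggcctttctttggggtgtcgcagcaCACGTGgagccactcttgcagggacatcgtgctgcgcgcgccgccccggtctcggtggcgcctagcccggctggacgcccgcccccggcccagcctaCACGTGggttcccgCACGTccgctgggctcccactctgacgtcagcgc
Pgk1 (chrX:106186850-106187099, + strand): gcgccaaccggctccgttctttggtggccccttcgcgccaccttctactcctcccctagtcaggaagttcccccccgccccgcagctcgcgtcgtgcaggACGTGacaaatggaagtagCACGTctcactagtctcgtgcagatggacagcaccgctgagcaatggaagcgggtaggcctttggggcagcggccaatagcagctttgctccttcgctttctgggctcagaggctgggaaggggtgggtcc
Pgam1 (chr19:41911621-41911870, + strand): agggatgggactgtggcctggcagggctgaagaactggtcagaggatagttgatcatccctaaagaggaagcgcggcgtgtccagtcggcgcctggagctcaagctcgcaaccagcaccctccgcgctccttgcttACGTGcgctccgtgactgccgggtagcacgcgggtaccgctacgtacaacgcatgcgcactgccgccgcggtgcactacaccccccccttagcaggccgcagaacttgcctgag
Pfkfb3 (chr2:11553930-11554179, - strand): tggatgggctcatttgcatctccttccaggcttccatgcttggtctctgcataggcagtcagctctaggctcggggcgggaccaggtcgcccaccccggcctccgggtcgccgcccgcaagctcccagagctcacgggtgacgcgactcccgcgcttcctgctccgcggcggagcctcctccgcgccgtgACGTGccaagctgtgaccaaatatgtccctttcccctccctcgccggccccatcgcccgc
Pdk2 (chr11:95041372-95041621, - strand): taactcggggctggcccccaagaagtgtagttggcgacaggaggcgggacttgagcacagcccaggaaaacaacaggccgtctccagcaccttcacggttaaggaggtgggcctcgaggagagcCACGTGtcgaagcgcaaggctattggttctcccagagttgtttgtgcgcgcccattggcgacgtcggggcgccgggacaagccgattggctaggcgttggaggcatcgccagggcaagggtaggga
Eno2 (chr6:124769674-124769923, - strand): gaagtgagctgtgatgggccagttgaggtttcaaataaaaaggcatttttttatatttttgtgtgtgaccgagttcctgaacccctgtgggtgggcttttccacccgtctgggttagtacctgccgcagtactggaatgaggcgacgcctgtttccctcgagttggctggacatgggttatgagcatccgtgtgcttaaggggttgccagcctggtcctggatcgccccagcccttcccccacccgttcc
The Ldha window held 3 such stretches, starting 145, 48 and 34 bases before the start, and 2 of them were the full E-box. The Pgk1 window held 2, at 150 and 131 bases, Pgam1 1 at 114 bases, Pfkfb3 1 at 60 bases and Pdk2 1, an E-box, at 126 bases, while the Eno2 window held 0. Over all RefSeq windows of the members, ACGTG was found in 14 of 37 genes (37.8%), against 18.5% of the 27025 genes with a window and 25.1% of the 9220 tested genes with a window; CACGTG was found in 6 members (16.2%), against 6.86% and 9.91%. By call, ACGTG was present in 5 of the 17 genes that fell, 2 of the 4 that rose and 6 of the 15 that did not pass, so members of each kind hold it.

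At the entry of glycolysis, Hk1 fell and Hk2 did not pass. Hk1 encodes the hexokinase that phosphorylates glucose in most cells of the nervous system and was at 13.9, 13.3 and 9.47 FPKM in the controls against 6.71, 6.10 and 7.88 FPKM in icKO libraries. All icKO libraries lay below the lowest control library, control replicate 3, and the icKO mean was 56.4% of the control mean (log2 difference -0.73, SE 0.16, limma, adjusted p = 0.0110). Hk2, the insulin-responsive isozyme of muscle and fat, was low, at 1.87, 2.29 and 1.88 FPKM in the controls against 1.80, 2.44 and 2.83 FPKM in icKO libraries, with overlapping groups (adjusted p = 0.425, 95% interval of the log2 difference -0.18 to 0.47). Gpi1, phosphoglucose isomerase, was at 30.2 ± 1.06 and 26.8 ± 2.77 FPKM (SD, n = 3 each) and did not pass (limma, adjusted p = 0.183), except without icKO replicate 2, where its adjusted p was 0.04996 (range over the alternatives to 0.465).

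Phosphofructokinase commits sugar to glycolysis, and of its 3 subunit genes only Pfkl, the liver-type subunit, passed. Pfkl fell from 6.87, 6.12 and 6.41 FPKM to 4.96, 4.35 and 3.67 FPKM, 66.9% of the control mean (log2 difference -0.49, SE 0.11, limma, adjusted p = 0.0118). The muscle-type gene Pfkm was the most abundant of the 3, at 32.6, 21.6 and 23.0 FPKM in the controls against 19.5, 19.8 and 20.8 FPKM in icKO libraries. Its highest value was in control replicate 1, which is rich in muscle transcripts, and although the groups did not overlap it did not pass (adjusted p = 0.130). Pfkp, the platelet-type subunit, was at 2.41 ± 0.53 and 2.09 ± 0.05 FPKM (SD, n = 3 each, adjusted p = 0.452). Whether the differences of the 3 genes differ from each other was tested only as ratios within libraries.

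Enzymes of the PFKFB family make and break fructose 2,6-bisphosphate, the main activator of phosphofructokinase. Pfkfb3, the isozyme with the strongest bias towards making it, rose from 4.27, 3.07 and 2.89 FPKM to 5.22, 6.76 and 5.17 FPKM, 168% of the control mean (log2 difference 0.61, SE 0.15, limma, adjusted p = 0.0175). The icKO libraries all lay above the highest control library. The rise no longer passed without control replicate 2 or control replicate 3 (adjusted p = 0.0603 and 0.0628, in a range of 0.00837 to 0.0628 over the alternatives). Pfkfb2, the heart-type isozyme, was at 2.15, 2.10 and 2.17 FPKM and 2.78, 2.40 and 2.54 FPKM, higher in every icKO library but short of the threshold (adjusted p = 0.112).

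From aldolase to pyruvate kinase, 6 of the 9 members fell, 1 rose and 2 did not pass. Aldoa (ENSMUSG00000030695), the main aldolase, was at 224, 167 and 158 FPKM in the controls against 94.5, 91.0 and 142 FPKM in icKO libraries. The highest library of each group was its muscle-rich library, and the fall (log2 difference -0.75, SE 0.21, limma, adjusted p = 0.0263) did not pass without control replicate 1 or 2 (adjusted p = 0.0701 and 0.0532) or without icKO replicate 1 or 2 (0.0840 and 0.0796, the alternatives ranging from 0.00638 to 0.0840). The fall passed with the muscle level as a covariate (limma, adjusted p = 0.00975), a fit in which 10 of 21 tested muscle markers were lower and 7 higher. It also passed without both muscle-rich libraries (adjusted p = 0.00638). That fit keeps the higher muscle marker level of the remaining controls (295 and 401 against 30.4 and 45.1 FPKM). The part of muscle content in the fall was not tested. A second gene ID with the same symbol was at 0.905 to 1.66 FPKM and was not counted as a member. The brain-type aldolase gene Aldoc was at 4.83, 4.50 and 4.13 FPKM in the controls against 5.26, 8.76 and 3.28 FPKM in icKO libraries, with icKO replicate 2 highest and icKO replicate 3 lowest of all 6 (adjusted p = 0.545).

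Tpi1, triosephosphate isomerase, which keeps both trioses in the pathway, fell from 55.7, 39.8 and 42.1 FPKM to 26.1, 20.8 and 27.2 FPKM, 53.9% of the control mean (log2 difference -0.86, SE 0.16, limma, adjusted p = 0.00632). Gapdh, glyceraldehyde-3-phosphate dehydrogenase, did not pass. It was at 107, 83.4 and 85.4 FPKM in the controls against 69.5, 75.5 and 79.7 FPKM in icKO libraries, 81.6% of the control mean, without overlap (log2 difference -0.28, interval -0.57 to -0.000727, adjusted p = 0.0959). Pgk1, phosphoglycerate kinase, the first ATP-yielding step, fell from 52.3, 46.2 and 50.1 FPKM to 27.3, 27.4 and 37.7 FPKM (62.2%, adjusted p = 0.00884). Pgam1, phosphoglycerate mutase, was even within groups, at 33.9, 34.1 and 35.4 FPKM against 20.1, 16.8 and 21.2 FPKM (56.2%, log2 difference -0.81, SE 0.10, adjusted p = 0.00170). Like Aldoa, the genes Tpi1, Gapdh, Pgk1, Eno1, Pkm and Ldha were highest in the muscle-rich library of each group. For Pgam1 this held only in the icKO group. The part of muscle content in these genes was not tested.

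The enolase genes went opposite ways. Eno1 (ENSMUSG00000063524), the ubiquitous enolase, had the largest fall among the tested members on the log2(FPKM + 1) scale (with a pseudocount of 0.01 FPKM that of G6pdx was larger, -0.98 against -0.96), from 61.5, 52.5 and 52.3 FPKM to 27.0, 27.2 and 30.9 FPKM, 51.2% of the control mean (log2 difference -0.94, SE 0.10, limma, adjusted p = 0.00109). Its near-identical copy Eno1b can share reads with it and was at 0.677, 10.3 and 9.09 FPKM in the controls against 4.71, 5.90 and 6.06 FPKM in icKO libraries. The sum of both was even within the groups, at 62.2, 62.9 and 61.3 FPKM in the controls against 31.7, 33.1 and 36.9 FPKM in icKO libraries, or 54.6% of the control mean. Eno2, the enolase of neurons, rose from 2.94, 3.61 and 3.22 FPKM to 5.75, 4.44 and 5.54 FPKM, 161% of the control mean (log2 difference 0.55, SE 0.11, adjusted p = 0.00925). All icKO libraries exceeded all control libraries, and the rise did not pass without control replicate 1 and icKO replicate 3 together (adjusted p = 0.0576, range over the alternatives 0.00483 to 0.0576). Of 10 neuronal marker genes only the neurofilament genes Nefl, Nefm and Nefh reached the level for testing, and all 3 rose. The list summed to 5.94 to 7.44 FPKM in the controls against 23.5 to 33.2 FPKM in icKO libraries, mostly from these 3 genes. Of the untested markers, Snap25 was lower in every icKO library (0.463, 0.391 and 0.449 against 0.331, 0.164 and 0.369 FPKM). Isl1 was higher in every icKO library, at 0.0367 FPKM or less, and the remaining ones overlapped. Only control replicate 1 had any Chat, 0.012 FPKM, with 0 in the other 5 libraries, and the part of neuronal RNA in the rise of Eno2 was not tested.

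Pkm (ENSMUSG00000032294), pyruvate kinase, which makes pyruvate and the last ATP of the pathway, had the smallest p among the members. It was at 71.6, 62.9 and 64.8 FPKM in the controls against 35.7, 37.2 and 37.9 FPKM in icKO libraries, 55.6% of the control mean (log2 difference -0.83, SE 0.08, limma, adjusted p = 0.000879). The icKO libraries spanned a narrow range far below the lowest control. Splice forms of Pkm are not separated in gene-level values. Several of these genes have many processed pseudogenes, with which reads can be shared, and their levels are uncertain to that extent.

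**Figure D2:**
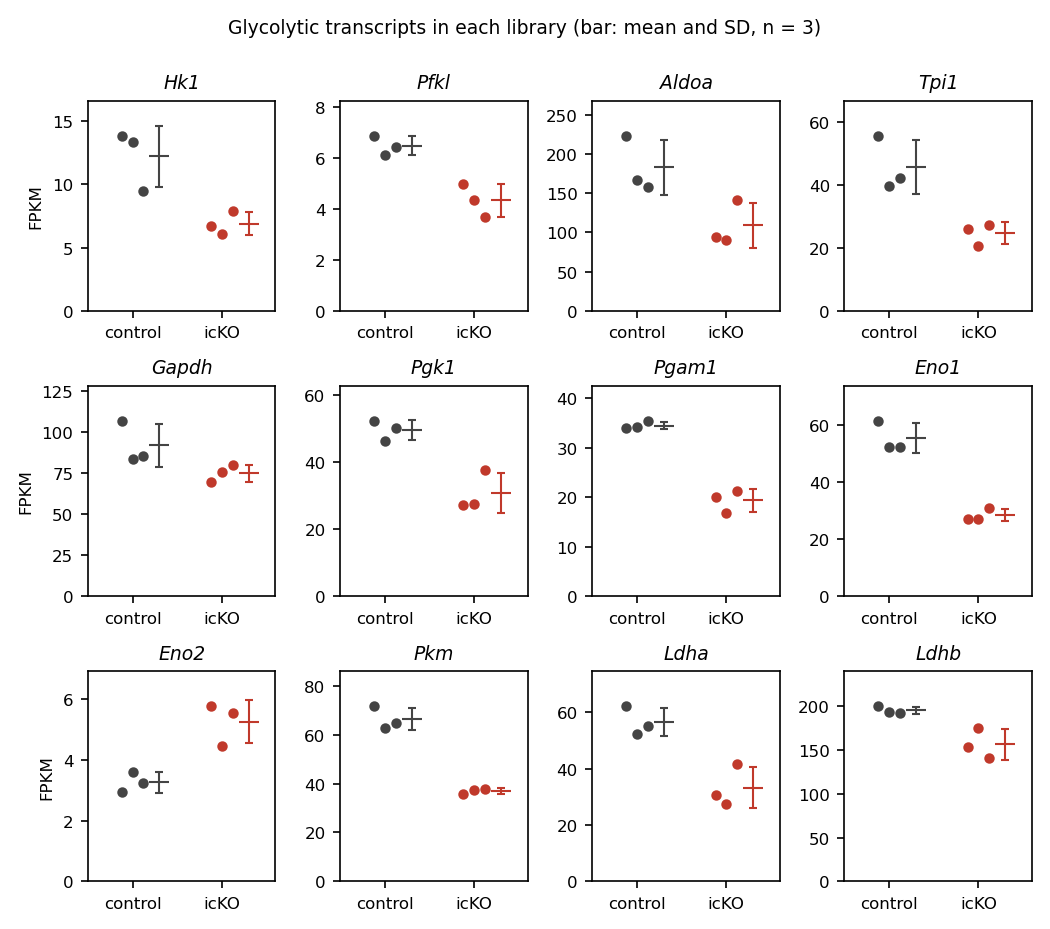
FPKM (y axis, from 0) of 12 glycolytic and lactate dehydrogenase genes in each control (grey) and icKO (red) library; points are libraries, bars the mean and SD of 3. Eno1 falls from 52.3 to 61.5 FPKM in control to 27.0 to 30.9 FPKM in icKO nerves, Eno2 moves the other way, and Aldoa is highest in the muscle-rich library of each group (224 and 142 FPKM).

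Both lactate dehydrogenase genes fell. Ldha, whose subunit favours the making of lactate, was at 62.1, 52.4 and 54.9 FPKM in the controls against 30.5, 27.6 and 41.6 FPKM in icKO libraries, 58.9% of the control mean (log2 difference -0.76, SE 0.16, limma, adjusted p = 0.00973). Ldhb, whose subunit favours lactate oxidation, was the most abundant member, at 199.7, 193 and 192 FPKM in the controls against 153, 175 and 141 FPKM in icKO libraries, 80.2% of the control mean (log2 difference -0.32, SE 0.10, adjusted p = 0.0399). Its groups did not overlap, yet it lost the call in each fit that left out a single library except the one without icKO replicate 2 (adjusted p = 0.0794 to 0.103), and it passed in 9 of the 19 alternatives (range 0.0159 to 0.148). Slc16a1, which encodes the lactate and pyruvate carrier MCT1 of Schwann cells, was at 26.3, 33.6 and 34.2 FPKM in the controls against 30.2, 29.5 and 23.6 FPKM in icKO libraries, with overlap (adjusted p = 0.362, interval of the log2 difference -0.51 to 0.17). Slc16a3, which encodes the lactate exporter MCT4 of glycolytic cells such as fast muscle, was at 1.79, 0.860 and 0.700 FPKM and at 0.204, 0.198 and 0.621 FPKM. The highest library of each group was again the muscle-rich one, and the gene was not tested.

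For the entry of pyruvate into mitochondria, transcripts of the carrier and of 1 subunit of pyruvate dehydrogenase were lower in icKO nerves. Mpc1 and Mpc2 encode the obligate partners of the mitochondrial pyruvate carrier, and both fell. Mpc1 went from 19.1, 19.5 and 22.9 FPKM to 12.1, 10.3 and 13.5 FPKM, 58.3% of the control mean (log2 difference -0.73, SE 0.12, limma, adjusted p = 0.00422). Mpc2 went from 6.33, 6.38 and 6.41 FPKM to 3.83, 3.89 and 4.45 FPKM, 63.7% (log2 difference -0.55, SE 0.08, adjusted p = 0.00284). Neither gene's groups overlapped.

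Within the pyruvate dehydrogenase complex, only Pdha1, the E1 alpha subunit that the kinases phosphorylate, fell. It was at 45.6, 49.6 and 52.0 FPKM in the controls against 29.3, 26.6 and 37.7 FPKM in icKO libraries, 63.6% of the control mean (log2 difference -0.65, SE 0.14, limma, adjusted p = 0.0104). Its partner Pdhb, the E1 beta subunit, was at 18.6, 19.1 and 18.8 FPKM and 17.0, 17.7 and 19.2 FPKM (adjusted p = 0.508, interval of the log2 difference -0.25 to 0.12). Dld, the E3 subunit, which other dehydrogenase complexes share, was at 23.1 ± 1.86 and 22.0 ± 1.98 FPKM (SD, n = 3 each, adjusted p = 0.628). Dlat, the E2 subunit, was at 9.98, 12.1 and 11.5 FPKM and 7.47, 8.71 and 10.9 FPKM, where icKO replicate 3 alone reached the control range; it did not pass (adjusted p = 0.140) except in 3 alternatives, among them the fit without icKO replicate 3 (0.0311, range over the alternatives 0.0246 to 0.336).

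The kinases that switch the complex off moved the other way in part. Pdk1 rose from 2.96, 3.11 and 2.94 FPKM to 4.56, 5.32 and 3.78 FPKM (151% of the control mean, log2 difference 0.46, SE 0.11, limma, adjusted p = 0.0180), and did not pass without control replicate 3 (0.0623, range over the alternatives 0.00678 to 0.0623). Pdk2, the broadly expressed and here the most abundant kinase among the members, rose from 22.2, 16.8 and 16.2 FPKM to 26.0, 30.5 and 24.0 FPKM (146%, log2 difference 0.53, SE 0.15, adjusted p = 0.0270). Its groups did not overlap, but the call was lost without control replicate 2 or 3 (0.0874 and 0.0905), without icKO replicate 1 or 2 (0.0624 and 0.0748) and with no filter on low values (0.0551, range over the alternatives 0.0107 to 0.0905). With the muscle covariate its adjusted p was 0.0508 at a log2 difference of 0.51, close to the 0.53 without it. Pdk3 was at 5.26, 6.71 and 6.77 FPKM and 4.34, 4.45 and 5.56 FPKM and did not pass (limma, adjusted p = 0.0786). It was a fall in 5 of the 19 alternatives: without control replicate 1 (0.0404), without icKO replicate 3 (0.0375), without both, with quantile scaling and with array weights. Over all alternatives its adjusted p ranged from 0.0133 to 0.217. The kinase gene Pdk4, which is induced in fasting and is no member, rose from 9.42, 5.08 and 5.64 FPKM to 35.6, 40.7 and 47.0 FPKM (log2 difference 2.48, SE 0.22, adjusted p = 0.000698). Summed FPKM of Pdk1, Pdk2 and Pdk3 was 27.7 ± 2.46 in control and 36.1 ± 3.65 in icKO nerves, and with Pdk4 34.4 ± 4.78 and 77.2 ± 5.88 (SD, n = 3 each), so Pdk4 became the most abundant of the 4 kinase transcripts in the icKO libraries.

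**Figure D3:**
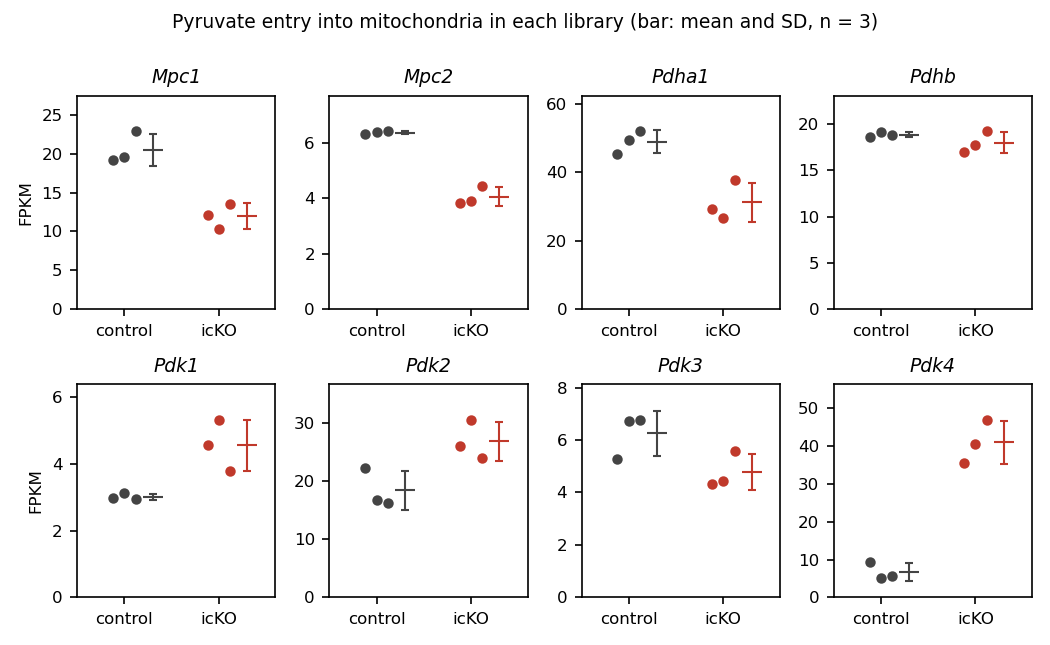
FPKM (y axis, from 0) of the pyruvate carrier genes, the E1 subunits of pyruvate dehydrogenase and its 4 kinases in each control (grey) and icKO (red) library; points are libraries, bars the mean and SD of 3. Mpc1, Mpc2 and Pdha1 are lower in every icKO library, Pdhb is near 18 FPKM in both groups, and Pdk4 rises from at most 9.42 FPKM to at least 35.6 FPKM.

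In the pentose phosphate pathway 4 of 7 members fell and 3 did not pass. G6pdx, glucose-6-phosphate dehydrogenase, the NADPH-yielding step that sets the flow into the pathway, fell from 13.6, 17.9 and 18.5 FPKM to 8.88, 7.24 and 9.11 FPKM, 50.5% of the control mean (log2 difference -0.90, SE 0.14, limma, adjusted p = 0.00353). The next enzymes of the oxidative branch did not pass. Pgls, 6-phosphogluconolactonase, was at 8.08, 9.33 and 7.37 FPKM in the controls against 9.12, 9.58 and 11.97 FPKM in icKO libraries (adjusted p = 0.125). Pgd, which makes the further NADPH, was at 15.02, 17.2 and 16.7 FPKM and 15.3, 14.1 and 18.0 FPKM, with overlapping groups (adjusted p = 0.741, interval of the log2 difference -0.31 to 0.21).

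In the non-oxidative branch, which exchanges carbon between pentoses and glycolytic sugars, 3 of 4 members fell. Tkt, transketolase, was at 74.5, 76.7 and 79.4 FPKM in the controls against 39.5, 48.4 and 39.8 FPKM in icKO libraries, 55.4% of the control mean (log2 difference -0.84, SE 0.10, limma, adjusted p = 0.00147). Taldo1, transaldolase, fell from 79.4, 79.4 and 81.1 FPKM to 49.6, 45.7 and 51.3 FPKM, 61.1% (log2 difference -0.70, SE 0.08, adjusted p = 0.00119). Both were among the more abundant members and varied little within a group. Rpe, ribulose-phosphate epimerase, fell from 7.44, 8.52 and 8.80 FPKM to 5.31, 4.32 and 3.95 FPKM (54.8%, adjusted p = 0.00340). Rpia, ribose-5-phosphate isomerase, had the lowest level of the tested members, at 1.53, 2.02 and 2.14 FPKM and 1.58, 1.54 and 1.55 FPKM, with overlap (adjusted p = 0.234).

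**Figure D4:**
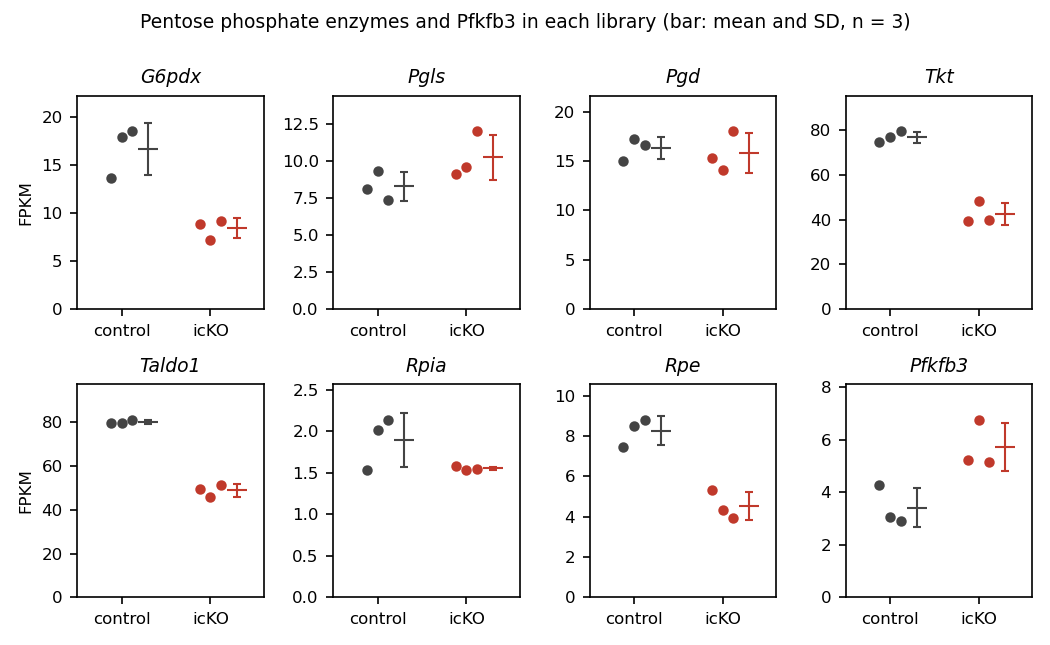
FPKM (y axis, from 0) of the 7 pentose phosphate genes and of Pfkfb3 in each control (grey) and icKO (red) library; points are libraries, bars the mean and SD of 3. G6pdx, Tkt, Taldo1 and Rpe are lower in every icKO library, Pgls and Pgd overlap between groups, and Pfkfb3 is higher in every icKO library (5.17 to 6.76 FPKM against 2.89 to 4.27 FPKM).

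Ratios of isozymes within a library do not depend on scaling between libraries, and 11 pairs were compared. With 3 libraries a group, an exact two-sided permutation test cannot give a p below 0.1, so no pair could pass. Eno2 relative to Eno1 was 0.048, 0.069 and 0.062 in control and 0.213, 0.163 and 0.179 in icKO libraries, a log2 difference of 1.65 without overlap (exact permutation p = 0.1, adjusted over the pairs 0.367). Hk2 relative to Hk1 was 0.135, 0.171 and 0.199 in control and 0.268, 0.399 and 0.359 in icKO libraries, a log2 difference of 1.02 without overlap (exact permutation p = 0.1, adjusted 0.367). Pdk3 relative to Pdk2 was 0.237, 0.400 and 0.419 in control and 0.167, 0.146 and 0.232 in icKO libraries, which also did not overlap, by a narrow margin (log2 difference -0.94, exact permutation p = 0.1, adjusted 0.367). The other 8 pairs overlapped. Ldhb relative to Ldha was 3.21, 3.69 and 3.50 in control and 5.02, 6.35 and 3.38 in icKO libraries, where icKO replicate 3, the muscle-rich library, lay within the control range (exact permutation p = 0.3, adjusted 0.367). Mpc2 relative to Mpc1 was 0.280 to 0.330 in control and 0.316 to 0.379 in icKO libraries, a log2 difference of 0.13 (exact permutation p = 0.5, adjusted 0.550).

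**Figure D5:**
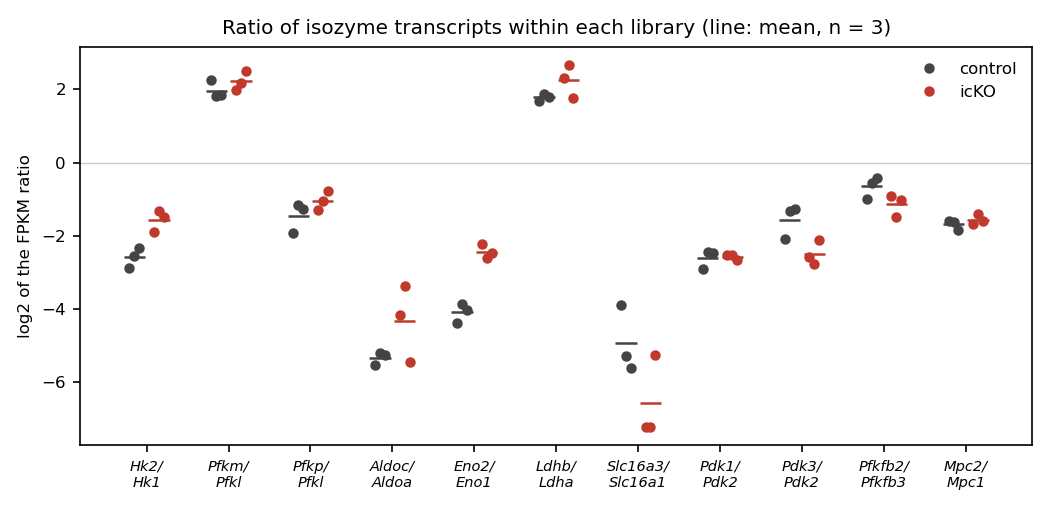
Log2 of the ratio of FPKM values of isozymes or partner subunits (y axis) for 11 pairs (x axis) in each control (grey) and icKO (red) library; points are libraries and lines the mean of 3. The groups separate for Hk2/Hk1 and Eno2/Eno1 and, narrowly, for Pdk3/Pdk2, and overlap for the other 8 pairs.

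Other genes of the pathway were taken from a list of 46, also chosen with earlier results of these data known, of which 34 were tested. Of these, 10 were falls, 5 were rises and 19 missed the threshold. Their median log2 difference was -0.21, and read against the background of 22.1% falls and 20.8% rises the share of falls was 29.4% and that of rises 14.7%. Beside Pdk4, the largest changes were a fall of Pcx and changes of Slc2a4, Shpk, Pygl and Pgm1. Pcx, pyruvate carboxylase, which feeds pyruvate into oxaloacetate and from there into citrate for fatty acid synthesis, fell from 25.6, 35.7 and 35.8 FPKM to 9.03, 10.9 and 9.18 FPKM, 29.9% of the control mean (log2 difference -1.63, SE 0.15, limma, adjusted p = 0.000760). Pcx is also abundant in adipocytes, of whose 14 markers 11 fell and 2 rose, and the part of adipocytes was not tested. Bsg, basigin, the chaperone that takes MCT1 and MCT4 to the cell surface, fell from 166, 162 and 181 FPKM to 104, 102 and 95.5 FPKM (59.2%, adjusted p = 0.00119).

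Of the glucose transporter genes, Slc2a1 did not pass and Slc2a4 rose. Slc2a1, which encodes GLUT1, the glucose transporter of perineurial and endothelial barriers and of Schwann cells, was at 53.5, 48.8 and 52.0 FPKM in the controls against 59.7, 56.2 and 52.3 FPKM in icKO libraries (limma, adjusted p = 0.279, log2 difference 0.12). Slc2a4, which encodes the insulin-responsive transporter GLUT4 of muscle and fat, rose from 4.36, 4.76 and 4.84 FPKM to 8.003, 10.9 and 11.9 FPKM (221%, adjusted p = 0.00272), with every icKO library above every control library. Shpk, sedoheptulokinase, which phosphorylates free sedoheptulose to an intermediate of the pentose phosphate pathway, rose from 22.2, 22.3 and 19.1 FPKM to 43.7, 54.4 and 36.7 FPKM (212%, adjusted p = 0.00280). Pdhx, the subunit that anchors E3 in the pyruvate dehydrogenase complex, was at 4.61 ± 0.30 and 4.27 ± 0.67 FPKM (SD, n = 3 each, adjusted p = 0.509).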

How the data were processed

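Polyadenylated RNA of sciatic nerve was measured in 6 libraries, 3 control and 3 icKO, grouped by the genotype and title labels. The authors deposited FPKM values, 1 column a library. Per the submitters' processing notes the build was GRCm39 and the tools were STAR, StringTie 1.3.1c, FastQC 0.11.2 and DESeq2 1.16.1, with no role or order. The annotation release was not given in the sources used here, nor the handling of strand. FPKM is relative to the library total, and the most abundant transcripts therefore lower the values of the rest.

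Symbols came from GENCODE M21 (GRCm38) by gene ID, for 55154 of 55335 IDs. Where Aldoa had 2 IDs, the one with the higher mean was used. Testing used limma 3.58.1 (R 4.3.3) on log2(FPKM + 1) for genes whose mean reached 1 FPKM, two-sided, with a variance trend and no covariate, and adjusted by Benjamini-Hochberg over all of them; the pseudocount shrinks differences of weakly expressed genes. In the text, rose and fell mean an adjusted p under 0.05. Depth was read from the most frequent small step of FPKM times length in 34186 genes with 1 transcript. On simulated data for this comparison (12666 genes, 200 changed) 80% of log2 changes of 1 and 96% of 2 were recovered, with 9 false calls. The changed genes were drawn from those with a mean log2(FPKM + 1) above 2, and noise was independent between genes. Far fewer genes changed than the 42.9% called in the data, so these figures do not carry over to it or to weakly expressed members.

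Members and lists were chosen with earlier results of these data known. All members are named; of the other pathway genes, the 6 largest called changes and Slc2a1, Pdk4, Bsg and Pdhx (Pygl and Pgm1, of the 6, stand in the closing section). Cell type markers are given as summed levels and counts, with some named. The alternatives were other pseudocounts, filters, scalings, variance settings and array weights, a replicate block, a muscle covariate, and leaving out libraries. Promoter sequences are RefSeq's, in GRCm38.p6, with a window for all 37 members; a motif match is a description only.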

Additional observations from a re-analysis of the deposited data

How the results depend on the processing

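Falls among the members numbered 15 to 19 over all 19 alternatives against 17 in the reported fit, and 16 to 18 under the 3 other scalings. With a mean of at least 5 FPKM only 1 member rose, and 3308 genes passed in all, where fewer genes were tested. When single libraries were left out, 1 to 4 members rose and 15 to 18 fell, and 3728 to 5476 genes passed in all; only 2 members rose without control replicate 2 and only 1 without control replicate 3. With the replicate block 15 members fell, 4 rose and 4596 genes passed, and Aldoa and Ldhb lost their calls (limma, adjusted p = 0.0558 and 0.0713). Same-numbered libraries of the groups did not deviate together (correlations of -0.10, 0.04 and -0.05). With 3 libraries a group these values cannot tell whether same-numbered libraries share a litter or pool, which the labels do not give. Of the isozyme ratios, that of Pdk1 to Pdk2 turned from a log2 difference of 0.03 to -0.12 without control replicate 1 (-0.12 to 0.12 over the fits without 1 library) and to -0.0644 with a pseudocount of 1, and no other pair reversed under the alternatives run. Eno1b turned from 0.18 to -0.71 without control replicate 1 (-0.71 to 0.67 over the fits without 1 library) and to -0.77 without both muscle-rich ones (adjusted p in limma 0.0114 and 0.0148, of 0.0114 to 0.987 over the alternatives), its value in control replicate 1 being the low one. Other pathway genes gave 7 to 13 falls and 4 to 6 rises. Members near 2 FPKM, such as Rpia, Hk2 and Pfkp, carry more counting error than the abundant ones. The cause of the lost calls was not tested.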

Other observations

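Of the genes of glycogen turnover in the wider pathway list, Pgm1, Pygb, Pygl and Ugp2 fell, and Pgm2, Pygm, Gys1 and Gbe1 did not pass. Pgm1, phosphoglucomutase, the link between glycogen and glycolysis, fell from 19.1, 16.4 and 16.4 FPKM in control to 6.97, 6.66 and 10.8 FPKM in icKO libraries, 47.0% of the control mean (limma, Benjamini-Hochberg adjusted p = 0.00469). Like Aldoa, Pgm1 was highest in the muscle-rich library of each group, and the part of muscle content in its fall was not tested. The glycogen phosphorylase genes of brain and liver, Pygb and Pygl, fell, Pygb from 24.0 ± 2.61 to 14.7 ± 1.99 FPKM and Pygl from 3.80 ± 0.93 to 1.204 ± 0.18 FPKM (SD, n = 3 each, adjusted p = 0.00629 and 0.00280). Ugp2, which makes the UDP-glucose used for glycogen, fell from 17.7 ± 1.27 to 11.7 ± 2.25 FPKM (adjusted p = 0.0158), but did not pass without control replicate 2 or 3 (0.0542 and 0.0581, range over the alternatives 0.00405 to 0.0581). The branching enzyme gene Gbe1 was at 3.62 ± 0.63 and 3.05 ± 0.41 FPKM (adjusted p = 0.289), and Pgm2, a relative of Pgm1, at 4.14 ± 0.89 and 3.55 ± 0.42 FPKM (adjusted p = 0.405).

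Muscle isozymes did not pass, and varied widely within the groups. Pygm, the muscle phosphorylase, was at 38.7, 10.4 and 11.5 FPKM in the controls against 2.65, 2.82 and 16.9 FPKM in icKO libraries, Eno3, the muscle enolase, at 63.4, 14.5 and 19.4 and 9.36, 10.7 and 21.2 FPKM, and Pgam2, the muscle mutase, at 36.97, 7.89 and 11.3 and 3.82, 3.12 and 13.5 FPKM. Each was highest in control replicate 1 and, within the icKO group, in icKO replicate 3, the libraries richest in skeletal muscle transcripts, and none of the 3 passed (limma, adjusted p = 0.142, 0.198 and 0.161). All of Pygm, Eno3 and Pgam2, together with Gys1, muscle glycogen synthase, were lower without those 2 libraries (adjusted p = 0.00324, 0.0301, 0.0112 and 0.0137; the highest over their alternatives were 0.341, 0.454, 0.384 and 0.708). In that fit 12 of 14 tested skeletal muscle markers were lower as well, their sums being 295 and 401 FPKM in the remaining controls and 30.4 and 45.1 FPKM in the remaining icKO libraries, and the part of muscle content was not tested. None of these genes is among the 37 members. The genes of this section other than Pygl and Pgm1 were chosen after their values were seen.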
